A study of Mus musculus with 6 samples.

Results

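Transport across the uterine lining was examined through 10 genes: the aquaporins Aqp1, Aqp3, Aqp4, Aqp5 and Aqp8, the epithelial sodium channel subunits Scnn1a, Scnn1b and Scnn1g, the chloride channel Cftr and the urea transporter Slc14a1. They were taken as every probe set to which the platform annotation gives exactly 1 gene symbol, equal to one of these names. This gave 12 of the 41420 probe sets measured: 4 for Aqp3, 3 for Aqp4, 1 for Scnn1a, 2 for Cftr and 2 for Slc14a1. No probe set carried the names of Aqp1, Aqp5, Aqp8, Scnn1b or Scnn1g in the tables used, and these 5 genes were not analysed here.

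Aquaporins are membrane channels that let water, and in the case of Aqp3 also glycerol, follow osmotic gradients. The epithelial sodium channel takes up sodium at the apical membrane and draws fluid out of a lumen, whereas Cftr releases chloride and bicarbonate into it. In the rodent uterus the balance between these channels sets the volume of luminal fluid and follows estrogen and progesterone. Slc14a1 encodes UT-B, a facilitative urea transporter best known from red blood cells, the vessels of the kidney medulla and the urothelium.

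RNA came from uteri of intact female mice (Mus musculus) aged 2 weeks, with 3 Affymetrix arrays labelled Arid1a d/d and 3 labelled Arid1a f/f. Arid1a encodes an ARID-domain protein of the SWI/SNF complexes, which remodel chromatin, and in the usual notation f is a floxed and d a deleted allele. The promoter that drove the deletion, the cells it reached, the strain and any treatment are not given in the sources used here, and the arrays of a genotype may or may not be separate animals, so p-values measure the spread between these arrays. The comparison asks which transport transcripts differed between the genotypes at an age when, per the series title, the need for Arid1a in gland development is in question.

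Arid1a itself was lower in d/d: on the log2 scale it measured 6.98, 7.06 and 7.04 in d/d 1, 2 and 3, against 7.54, 7.58 and 7.71 in f/f 1, 2 and 3, with a log2 difference of -0.58 (limma adjusted p = 0.0260 over genes), by a probe set whose place relative to the deleted part is not known. Uterine tissue was marked by smooth muscle and stromal genes, whose lists averaged 8.65 and 9.63 in d/d and 8.89 and 10.02 in f/f. Array d/d 1 stood apart from its group. On the first principal component (42.6% of the variance) it lay at -11.9, within the f/f range of -29.4 to -6.95, and the other d/d arrays were far from it, at 37.2 and 28.8. The tests of the members, and of the genes named below from the transport lists, were therefore also run without d/d 1, except for Slc14a2, Slc12a2, Arg1, Ass1 and Aqp6. The marker lists were not run without it. In the fits without d/d 1, 971 of 41420 probe sets and 821 of 16813 genes passed, against 217 and 192 with all 6 arrays. A pass in those fits is to be read beside these counts.

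Among the members, Slc14a1 was lower and Cftr higher in d/d uteri, while the probe sets of Aqp3, Aqp4 and Scnn1a had overlapping groups. The log2 difference of Slc14a1 was -1.36 ± 0.23 and that of Cftr 1.20 ± 0.22 (SE, n = 3 and 3) by the brighter probe set of each gene. In limma over all probe sets neither passed the threshold of 0.05 after Benjamini-Hochberg adjustment, with adjusted p of 0.0531 for Slc14a1 and 0.0711 for Cftr. Thus 0 of the 12 member probe sets were called, where 0.524% of all probe sets were. At an unadjusted p under 0.05 there were 3 of 12, against 9.85% of all probe sets, and the groups did not overlap for 2 of 12, against 14.1% of all probe sets. The median log2 difference was -0.07 over the 12 and -0.0041 over all probe sets.

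When each gene was represented by its brightest probe set, Slc14a1 passed the threshold over 16813 genes (limma adjusted p = 0.0468) and Cftr did not (0.0578). Of the 5 member genes with a probe set, 1 fell and 0 rose, where 1.14% of all genes passed.

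**Figure D1:**
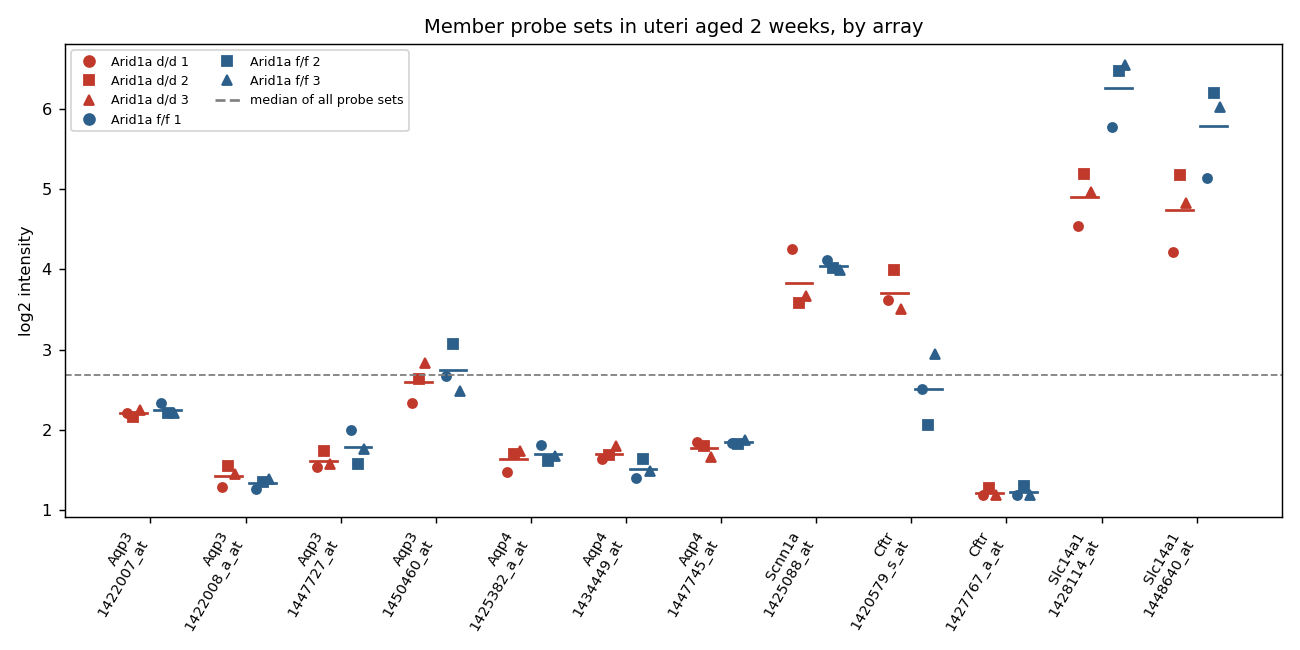
Log2 intensity of the 12 member probe sets on each array, with d/d arrays in red to the left of f/f arrays in blue, horizontal bars for group means, and a dashed line at the median over all probe sets (2.69). The groups are apart for Cftr 1420579_s_at, with d/d above, and for Slc14a1 1428114_at, with d/d below, and overlap for the other 10 probe sets.

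Slc14a1 was the member with the smallest p. Its probe set 1428114_at measured 4.54, 5.19 and 4.96 in d/d 1, 2 and 3, against 5.77, 6.47 and 6.54 in f/f 1, 2 and 3 (log2 intensity). Each d/d array was lower than every f/f array. The d/d mean was 4.90 ± 0.33 and the f/f mean 6.26 ± 0.42 (SD, n = 3 each), a ratio of 0.389, or 2.57-fold lower in d/d. The 95% interval of the difference ran from -1.89 to -0.83.

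The other Slc14a1 probe set, 1448640_at, measured 4.22, 5.17 and 4.82 in d/d 1, 2 and 3, against 5.14, 6.19 and 6.02 in f/f 1, 2 and 3. Here the groups overlapped by a narrow margin, as d/d 2 lay just above f/f 1. The difference was -1.05 ± 0.31 (SE; limma adjusted p = 0.261), with an interval from -1.76 to -0.34, so both probe sets pointed the same way. In both, the array numbered 1 was the lowest of its genotype. With d/d 1 left out, 1428114_at stood at -1.18 and passed over probe sets (adjusted p = 0.0304), and 1448640_at stood at -0.79 and did not (0.234). Averaging both probe sets gave -1.21 and ended the call over genes (adjusted p = 0.104).

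Over genes, the Slc14a1 call was also lost without d/d 2, d/d 3, f/f 2 or f/f 3, with adjusted p of 0.103 to 0.193 and differences of -1.51 to -1.22, and remained without d/d 1 (0.0240) or f/f 1 (0.0378). The direction of a gene whose groups do not overlap cannot change when an array is left out. Slc14a2, the neighbouring gene and the other member of its family, which encodes the kidney urea transporters, measured 3.08, 3.21 and 3.09 in d/d and 3.12, 3.66 and 3.13 in f/f by its brighter probe set. Its groups overlapped, with a log2 difference of -0.18 ± 0.15 (SE; limma adjusted p = 0.743 over genes).

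Cftr, the cystic fibrosis chloride channel, went in the other direction. Its probe set 1420579_s_at measured 3.62, 3.99 and 3.50 in d/d 1, 2 and 3, against 2.51, 2.06 and 2.94 in f/f 1, 2 and 3. All d/d arrays lay above all f/f arrays, and f/f 1 and f/f 2 were dimmer than the median probe set of the array (2.69), at levels where background compresses a fold. The means were 3.71 ± 0.26 in d/d and 2.51 ± 0.44 in f/f (SD, n = 3 each), a ratio of 2.29, with a 95% interval of the log2 difference from 0.70 to 1.70. Without d/d 1 the difference was 1.24 and passed over probe sets (adjusted p = 0.0392), while without any 1 of the other arrays it ranged from 0.98 to 1.42 with adjusted p of 0.0744 to 0.282.

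The other Cftr probe set, 1427767_a_at, was dim in both genotypes. It measured 1.19, 1.27 and 1.19 in d/d and 1.19, 1.30 and 1.19 in f/f, with a difference of -0.0103 ± 0.0838 (SE; limma adjusted p = 0.981). At that level background can hide a change. The suffix _s_at of the brighter one marks probes that can match more than 1 transcript, so the 2 probe sets need not read the same transcripts. The mean of both gave 0.59 for Cftr (adjusted p = 0.0784 over genes).

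Scnn1a, the alpha subunit that the sodium channel needs to reach the membrane, measured 4.26, 3.58 and 3.67 in d/d 1, 2 and 3, against 4.11, 4.01 and 3.997 in f/f 1, 2 and 3. The f/f arrays lay close together, d/d 2 and d/d 3 lay below all of them, and d/d 1 lay above all of them. The difference was -0.21 ± 0.17 (SE; limma adjusted p = 0.782), with an interval from -0.59 to 0.18. Without d/d 1 it was -0.42, with an adjusted p of 0.0871 over probe sets and 0.0596 over genes. Without d/d 2 it was -0.0795 and without d/d 3 -0.12, so each of the 3 d/d arrays moved the value by more than 1.5 times.

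The aquaporin probe sets lay at or near the dim end of the array. Aqp3, an aquaglyceroporin of the basolateral membrane of epithelia, was brightest by 1450460_at, with 2.33, 2.63 and 2.83 in d/d 1, 2 and 3, against 2.67, 3.07 and 2.48 in f/f 1, 2 and 3. The groups overlapped around the median of all probe sets, and the difference was -0.14 ± 0.18 (SE), with an interval from -0.55 to 0.26. The other 3 Aqp3 probe sets lay below 2.69 on every array and had differences of -0.16 to 0.0975.

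Aqp4, a water channel best known from astrocytes and skeletal muscle, had 3 probe sets, all below 2.69 on every array. Its values ran from 1.48 to 1.84 in d/d and from 1.40 to 1.88 in f/f. The largest of its differences was that of 1434449_at, at 0.19 ± 0.10 (SE), with overlapping groups, an interval from -0.0301 to 0.42 and a limma adjusted p of 0.580. For Aqp3 and Aqp4 together, the 7 probe sets had adjusted p of 0.580 to 0.926. At these levels a change in a few cells of the tissue could go unseen with 3 arrays a genotype. How large a change could be detected there was not tested.

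**Figure D2:**
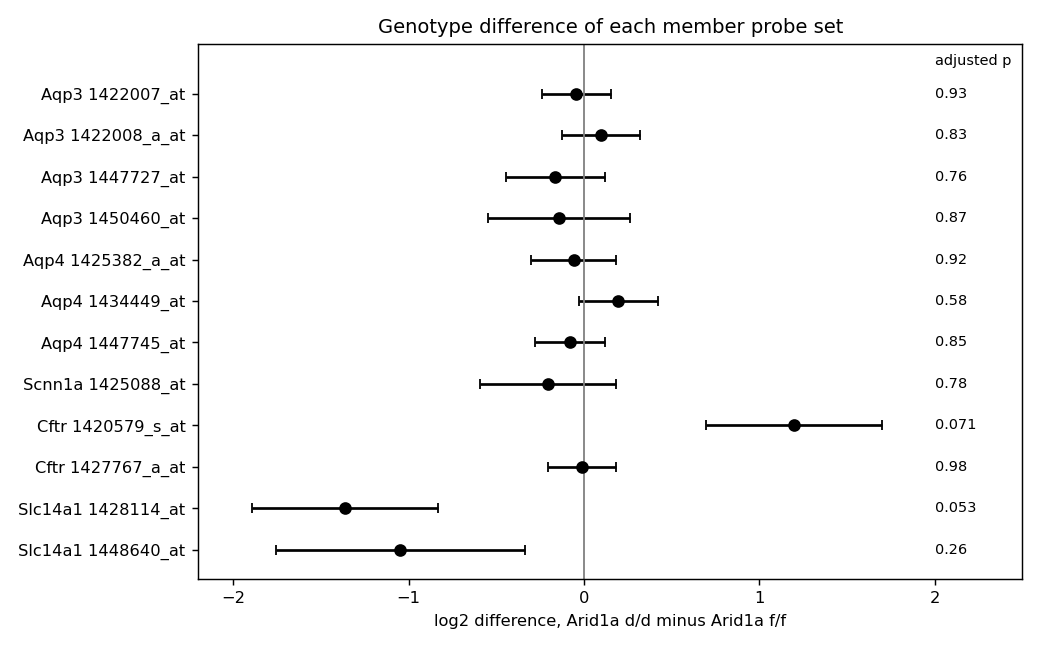
Log2 difference (d/d minus f/f) of each member probe set, with 95% confidence intervals from limma as bars and the adjusted p over all probe sets at the right. The intervals of Cftr 1420579_s_at and of both Slc14a1 probe sets lie to 1 side of 0, and the other 9 include 0.

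Lists of cell type markers were read beside the members. Of 11 measured markers of simple epithelium 2 rose, Muc1 at 1.03 and Cdh1 at 1.00, 0 fell, and 10 of 11 had positive differences. Over all genes, 106 of 16813 rose and 7834 had positive differences. The mean log2 level of the 11 markers was 7.54 to 7.74 in d/d arrays and 6.996 to 7.16 in f/f arrays.

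Of 9 measured markers of glandular epithelium 2 fell, Cxcl15 at -3.71 and Foxa2 at -1.41, 0 rose and 7 did not pass. Over all genes 1.14% passed, 0.512% fell, and 8979 of 16813 differences were negative. The median difference of the 9 was -0.14, and 4 of them lay below 2.69 on every array. Their mean level was 2.41 to 2.51 in d/d and 3.00 to 3.18 in f/f. Of 7 endothelial markers 0 passed and all 7 had negative differences, with a mean level of 5.52 to 6.10 in d/d and 6.22 to 6.38 in f/f. Fat cell markers had 0 of 6 past the threshold and 6 negative differences, at 3.91 to 4.80 in d/d and 5.06 to 5.71 in f/f. Stromal markers had 1 of 10 that fell, Thy1 at -1.06, with all 10 negative, at 9.50 to 9.84 in d/d and 9.96 to 10.1 in f/f. The part of these cells in the Cftr and Slc14a1 differences was not tested, and in whole uteri fewer cells of a type and less RNA per cell cannot be told apart.

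Markers of the other cells best known for Slc14a1 had overlapping groups. Of 10 listed red blood cell markers 4 were measured, with mean levels of 2.26 to 2.36 in d/d and 2.24 to 2.70 in f/f. Of the 4, 2 lay below 2.69 on every array, where background can hide a change. None passed the threshold, where 1.14% of all genes did. The 6 urothelial markers averaged 3.14 to 3.21 in d/d and 3.18 to 3.28 in f/f, also with 0 past it. Nor did any marker of smooth muscle (7 measured), skeletal muscle (8), stratified epithelium (7), mesothelium (4), leukocytes (7) or the cell cycle (7) pass, with median differences of -0.21, -0.10, -0.0535, 0.0835, 0.0133 and 0.23. The cell cycle list was lowest in d/d 1 (5.10, against 7.03 and 6.83 in d/d 2 and 3) and in f/f 1 (5.61, against 5.81 and 6.59 in f/f 2 and 3), the same arrays in which Slc14a1 was lowest.

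**Figure D3:**
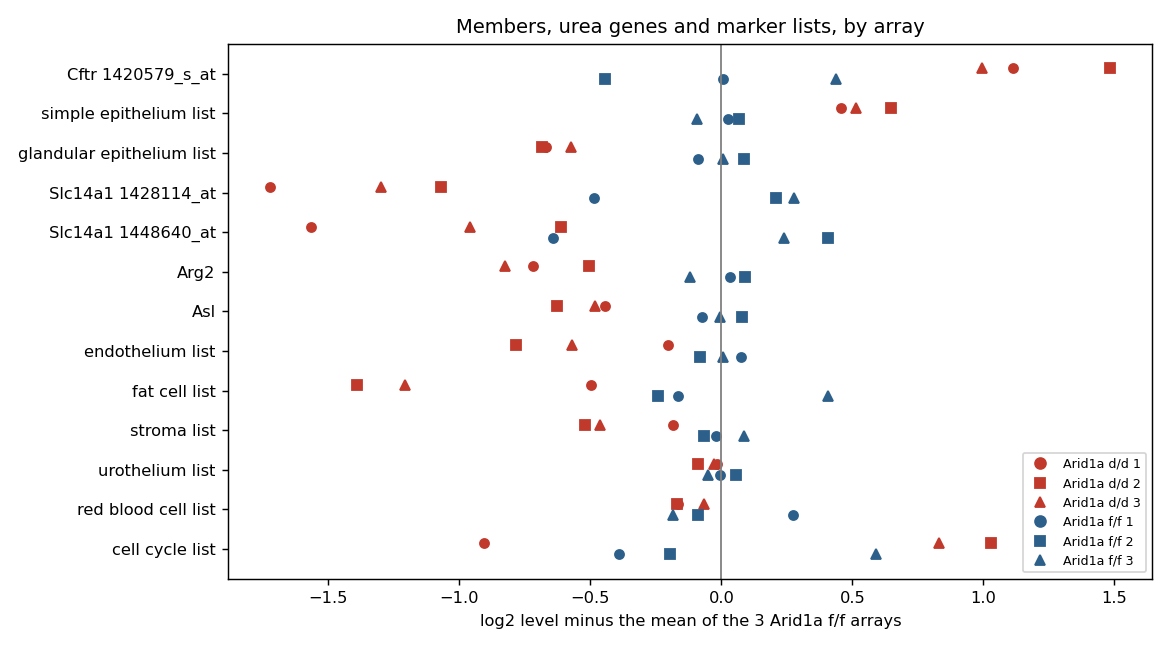
Log2 level of each array minus the f/f mean, for Cftr, Slc14a1, Arg2, Asl and the means of marker lists. Red d/d arrays are drawn above blue f/f arrays, and the marker shape gives the replicate number. The lists are simple and glandular epithelium, endothelium, fat cells, stroma, urothelium, red blood cells and cell cycle. Simple epithelium lies on the side of Cftr, and glandular epithelium, fat, endothelium and stroma lie on the side of Slc14a1. The urothelium, red blood cell and cell cycle lists have overlapping groups.

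Beyond the members, 61 of 88 listed genes of fluid, ion and urea handling were measured. Among them 0 rose and 2 fell, where 0.512% of all genes fell, and both came from the list of urea and osmolyte handling. Arg2, the mitochondrial arginase that splits arginine into ornithine and urea, measured 4.23, 4.44 and 4.12 in d/d 1, 2 and 3, against 4.98, 5.03 and 4.82 in f/f 1, 2 and 3. The genotypes did not overlap, with d/d lower by a difference of -0.68 ± 0.11 (SE; limma adjusted p = 0.0391 over genes). Asl, argininosuccinate lyase, which makes the arginine, measured 5.91, 5.72 and 5.87 in d/d 1, 2 and 3, against 6.28, 6.43 and 6.35 in f/f 1, 2 and 3.

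The groups of Asl did not overlap either, and its difference was -0.52 ± 0.09 (SE; limma adjusted p = 0.0486 over genes). Each of these genes has 1 probe set, that of Arg2 with the suffix _s_at, whose probes can match more than 1 transcript. Over probe sets Arg2 passed (0.0470) and Asl did not (0.0648). With 1 array left out, either was called in 1 of 6 fits, without d/d 1, and adjusted p rose to 0.163 for Arg2 and 0.203 for Asl. The list of urea and osmolyte handling held 10 measured genes, of which 8 did not pass and 5 had positive differences (median 0.0060, against -0.0114 over all genes). Arg1, the liver-type arginase, and Ass1, which acts just before Asl, lay below 2.69 on average and had differences of 0.11 and 0.0704.

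The genes that control the sodium channel gave 0 calls among 11 measured, with 3 at an unadjusted p under 0.05 (median -0.13), where 12.2% of all genes had such a p. Tmprss4, a membrane protease that can cleave the channel, measured 3.34, 3.92 and 3.65 in d/d 1, 2 and 3, against 3.02, 2.78 and 2.97 in f/f 1, 2 and 3. The groups did not overlap (0.71 ± 0.15 SE; limma adjusted p = 0.0914), and it passed without d/d 1 (0.0098), as did 821 of 16813 genes. Spint2, an inhibitor of such proteases, had a difference of 0.43 (adjusted p = 0.101), and the kinase gene Wnk4 had -0.15 (0.579). Nedd4, a ubiquitin ligase, had 0.31 (adjusted p = 0.339) by its brightest probe set, -0.11 by the next brightest, whose mean levels were 9.98 in d/d and 10.09 in f/f, and 0.12 with its 3 probe sets averaged.

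Chloride, bicarbonate and potassium transport gave 0 calls among 21 genes, with 5 at an unadjusted p under 0.05, against 12.2% of all genes (median 0.0612). The smallest p belonged to Car2, a carbonic anhydrase, at 0.41 (limma adjusted p = 0.183), Ano1, the calcium-activated chloride channel, at -0.29 (0.318), Slc9a3r1, a scaffold that binds Cftr, at 0.47 (0.326), and Car12, a membrane-bound carbonic anhydrase, at -0.68 (0.357). Without d/d 1, where 821 of 16813 genes passed, Slc9a3r1 stood at 0.66 and passed (0.0221). With its probe sets averaged it had 0.29. Car12 had -0.43 without d/d 1 and -0.25 with its probe sets averaged. The average for Car12 includes dim probe sets with mean levels of 1.65 and 2.14, against 3.81 for the brightest. The brightest probe set of Slc12a2, the cotransporter that loads secretory cells with chloride, had a difference of 0.0568 ± 0.2290 (SE).

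The 5 measured genes of the sodium pump gave 0 calls, with 4 at an unadjusted p under 0.05, against 12.2% of all genes (median -0.37). All 5 differences were negative, as were 8979 of the 16813 over all genes. Atp1b2, a beta subunit, had -0.84 (limma adjusted p = 0.227) and passed without d/d 1 (0.0334 at -1.07), as did 821 of 16813 genes. Its difference was -0.53 without d/d 2 and -0.37 with its probe sets averaged. That average includes a dim probe set with a mean level of 1.71, against 5.69 for the brighter one, and background can hide a change there. Atp1b1, the beta subunit of most epithelia, had -0.58 (adjusted p = 0.379). Fxyd1 and Fxyd2, small regulators of the pump, had -0.37 (0.317) and -0.22 (0.338). The alpha subunit genes on the list had no probe set here.

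Of 9 measured claudins, which set how leaky the path between cells is to ions, 0 passed and 3 had an unadjusted p under 0.05, against 12.2% of all genes (median -0.0581). Cldn1, a sealing claudin, measured 6.46, 6.01 and 6.13 in d/d 1, 2 and 3, against 7.01, 6.81 and 6.87 in f/f 1, 2 and 3 (-0.70 ± 0.13 SE; limma adjusted p = 0.0569). Cldn8, a claudin of sodium-absorbing epithelia, measured 5.66, 6.02 and 5.77 in d/d 1, 2 and 3, against 5.27, 5.25 and 5.16 in f/f 1, 2 and 3 (0.59 ± 0.11 SE; 0.0582). These groups did not overlap and pointed opposite ways. Cldn7 had 0.62 (0.0716) and Cldn16, a dim one, -0.19 (0.516), or -0.11 without d/d 1. Cldn1, Cldn8 and Cldn7 each passed without d/d 1, with adjusted p of 0.0063, 0.0174 and 0.0375, in a fit where 821 of 16813 genes passed. The mean of the 4 Cldn1 probe sets gave -0.25 (0.244).

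Of the 7 other aquaporins on the list 5 were measured, and 0 passed or had an unadjusted p under 0.05. Their differences lay between -0.0475 and 0.0613 (median 0.0267). Aqp11, an intracellular aquaporin, measured 4.76, 4.58 and 4.58 in d/d 1, 2 and 3, against 4.74, 4.66 and 4.67 in f/f 1, 2 and 3, with overlapping groups. Aqp9, Mip and Aqp6 averaged below 2.69, and Aqp12 had a difference of 0.0613.

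**Figure D4:**
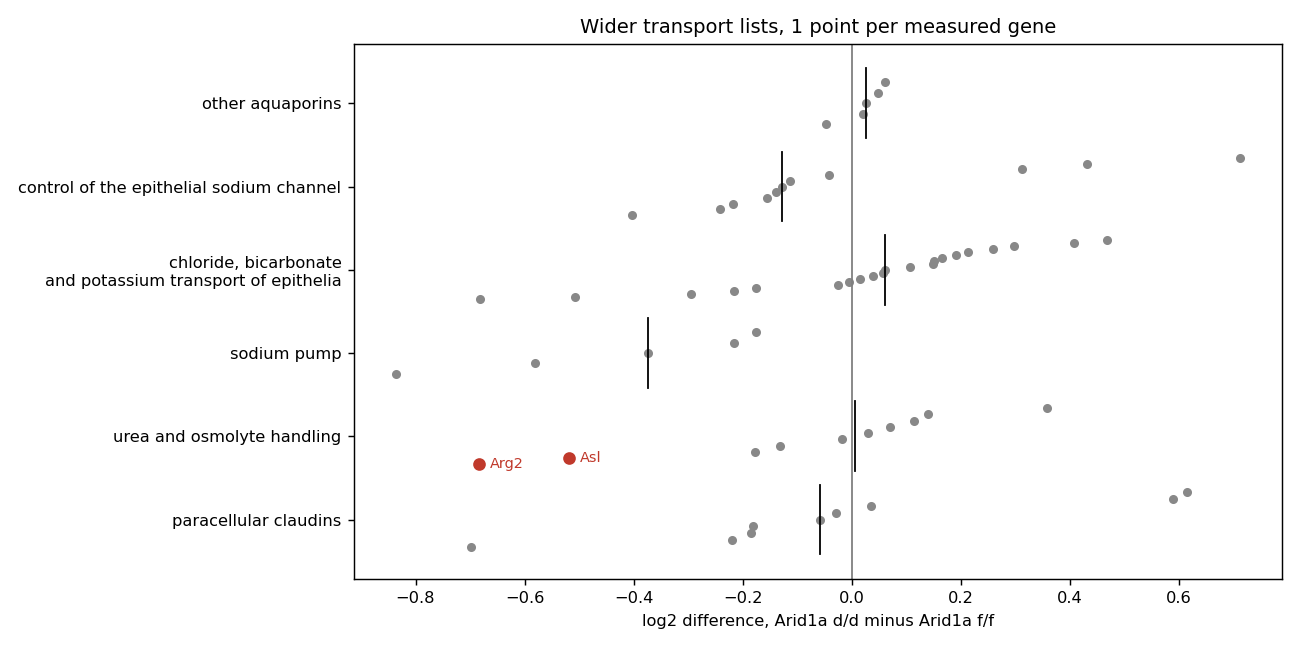
Log2 difference (d/d minus f/f) of the 61 measured genes in 6 lists of transport genes, 1 point a gene by its brightest probe set, with a vertical bar at each list's median. Arg2 and Asl, in red, are the 2 genes past the threshold.

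**Figure D5:**
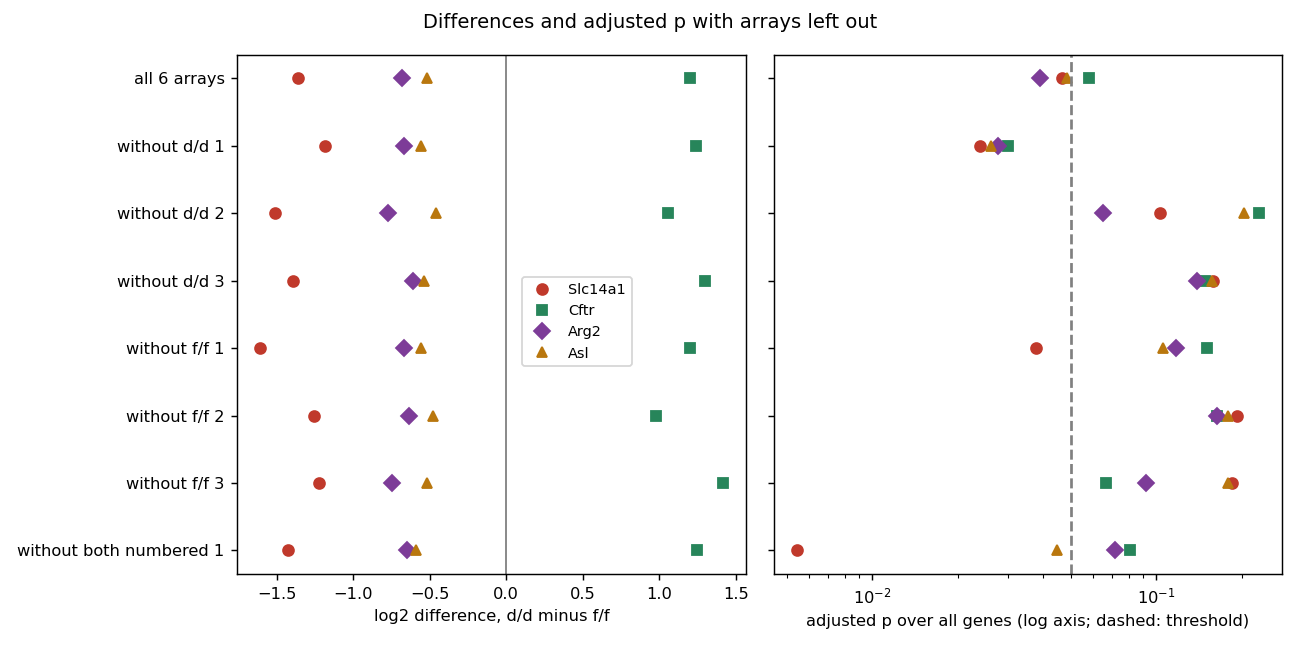
Log2 differences (left) and limma adjusted p over all genes (right, log axis) of Slc14a1, Cftr, Arg2 and Asl with all 6 arrays, with 1 array left out, and without both arrays numbered 1. The differences keep their side of 0 in each fit, while the adjusted p crosses the threshold of 0.05, drawn as a dashed line.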

How the data were processed

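The authors deposited a linear intensity for each probe set on each array. RMA is named for these intensities in the submitters' processing notes, with no version, settings or genome build. RMA compresses differences at the dim end. Log2 was taken with no added constant. All 41420 probe sets entered 1 fit with limma 3.58.1 in R 4.3.3 (lmFit, eBayes, 2-sided, no covariate, Benjamini-Hochberg over all features), and 16813 genes, each by its brightest 1-symbol probe set, entered another. Precision is limited by the number of arrays. The median array intensity was 6.34 to 6.59. The steps were checked on simulated data.

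The members, 6 transport lists and 13 marker lists were chosen with earlier results of these data known. Named are all members, the genes of a transport list past the threshold or else the 4 of smallest p, and up to 2 markers a list. Slc14a2, Arg1, Ass1, Slc12a2, Aqp6 and the array values of the cell cycle, stratified epithelium and skeletal muscle lists are named outside that rule. Alternatives covered the variance model, scaling, filters, thresholds, probe set averaging and arrays left out.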

Additional observations from a re-analysis of the deposited data

How the results depend on the processing

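The labels do not say whether the replicate numbers pair the arrays. The deviations of arrays with the same number had correlations of 0.46, 0.0228 and 0.18. Those of arrays with different numbers ran from -0.36 to 0.30, so these values do not decide whether the arrays are paired. With the replicate block, 574 probe sets and 457 genes passed against 217 and 192, with 2 member probe sets (both of Slc14a1) and 6 transport genes against 0 and 2; Asl did not pass (0.0534). Array weights gave 329 probe sets, 381 genes, 1 member probe set, 2 member genes and 6 transport genes. An intensity trend with robust variance gave 2 member probe sets, 2 member genes (Slc14a1 and Cftr) and 4 transport genes. The fit without either array numbered 1 gave 657 probe sets, 540 genes, 2 member probe sets and 4 transport genes. An adjusted p under 0.10 gave 462 and 403, 2 member probe sets, 2 member genes and 6 transport genes, as a looser threshold must. Without _x_at probe sets 1 member probe set passed, without dim ones 1 transport gene, and 0 member genes passed with an offset of 1 before log2 or with a gene's probe sets averaged. Apart from the looser threshold the cause was not tested. Median centring and repeated quantile normalization moved none of these 5 counts by over 1.5 times. Asl had an adjusted p of 0.0528 with the quantile step and 0.0513 without dim probe sets, and Arg2 0.0715 without both arrays numbered 1. With the quantile step the 2 transport genes past the threshold were Arg2 and Cldn1 (limma adjusted p = 0.0421 and 0.0445). Of 16 alternative fits over genes, Arg2 passed in 10, Asl in 8 and Cldn1 in 6.

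With each array left out in turn, 37 to 971 probe sets, 26 to 821 genes, 0 to 2 member probe sets, 0 to 2 member genes and 0 to 9 transport genes passed, most of them without d/d 1 (9 transport genes). Directions turned only for values near 0 that never passed. With 1 array left out these ranged from -0.0655 to 0.000293 and from -0.27 to 0.0216 for Aqp3 (1422007_at and 1450460_at), -0.11 to 0.0227 for Aqp4 (1425382_a_at), -0.0372 to 0.0269 for Cftr (1427767_a_at), -0.0246 to 0.127 for Aqp9 and -0.0766 to 0.15 for Mip. Without both arrays numbered 1 they were 0.0010 (Aqp3), 0.0803 (Aqp4) and -0.0357 (Aqp9), and with probe sets averaged 0.0192 (Aqp4), -0.0399 (Aqp9) and -0.0170 (Mip).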

Other observations

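Among 10562 genes brighter than the median of all probe sets, those whose log2 values over the 6 arrays were most like Slc14a1 (1428114_at) were Pde4b, Gstz1, Met, Sbf1 and C9orf72, with Pearson correlations of 0.984, 0.982, 0.981, 0.980 and 0.982. All 5 had negative differences, from -0.50 (Pde4b, a phosphodiesterase that breaks down cyclic AMP) to -0.32 (Met, the receptor of hepatocyte growth factor), and 0 of the 5 passed the threshold in limma. The arrays span both genotypes, so these correlations include the difference between them, and negative differences follow from how the 5 were chosen. Of the 10562 genes, 151 had a correlation above 0.9.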
